A study of Mus musculus with 8 samples.

Results

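The genes described here are 6 STAT factors (Stat2, Stat3, Stat4, Stat5a, Stat5b and Stat6) and 3 of their feedback inhibitors (Socs1, Socs2 and Cish), 9 genes of 26504 tested. They were taken as every non-control probe whose gene name on the array is one of these symbols, which gave 16 probes of 55681. The samples were colony cells, grown from bone marrow for 7 days on an endothelial monolayer in HSC media, and bone marrow derived macrophages (BMDM), grown for 7 days with the growth factor M-CSF and then induced with IL4 or LPS for 24 hours, or kept in control media. Mice of every group, controls included, carried the transgene Tg(CAG-DsRed*MST)1Nagy, which codes for a red fluorescent protein, on a B6.Cg background. Colony cells thus had another substrate and another medium than the macrophages. Each of the 4 groups had 2 samples, 1 array each. The labels give no age or sex of the mice, do not name the animal or culture behind each sample, and do not say whether endothelial cells were removed from the colony cells. The p-values below therefore measure only the spread between these samples, which may be technical.

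STAT proteins are transcription factors that wait in the cytoplasm until a cytokine receptor and its JAK kinases phosphorylate them, after which they pair and move to the nucleus. STAT2 acts in the interferon complex with IRF9, STAT3 downstream of the IL-6 and IL-10 families, STAT4 downstream of IL-12, STAT5A and STAT5B downstream of growth factors such as GM-CSF, IL-3 and growth hormone, and STAT6 downstream of IL-4 and IL-13. Genes of the SOCS family are themselves induced by STATs, and their proteins bind receptors or JAKs and damp the signal. In macrophages IL-4 is the standard stimulus of alternative activation and LPS, a bacterial product read by TLR4, that of classical activation.

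Expression was measured on 1-colour arrays of 60-base probes, and a level is the log2 background-subtracted signal minus the 75th percentile of its array, so that 0 is the 75th percentile. Levels compare groups for 1 probe and not 1 gene with another. Per array 62.4% to 72.2% of spots exceeded background clearly, and LPS replicate 2 had 257 uneven or outlying spots, against 91 to 137 on the other arrays. All 9 genes passed the filter on dim probes, and the probe that represents each was well above background on all 8 arrays. Of the 16 probes 15 were, and the exception is a Socs2 probe given below. No spot of these genes was saturated, and 1 of their 34 spots per array was left out, a Socs2 spot on LPS replicate 2. A change is a log2 fold change with its standard error from 2 arrays per group, and a gene is called at an adjusted p under 0.05 by limma with Benjamini-Hochberg adjustment over all genes tested. With 2 arrays in each group the smallest two-sided p of an exact permutation test is 0.333, and calls therefore depend on the spread that limma pools over genes and groups.

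The means of the 4 groups spanned 4.35 to 5.07 log2 units for the 3 feedback inhibitors and 1.32 to 3.54 for the 6 factors. With IL-4, 4 of the 9 genes were higher than in control (Socs1, Socs2, Cish and Stat5a) and 2 lower (Stat2 and Stat4), while 19% of all genes tested were called, 9.87% higher and 9.18% lower. With LPS, 4 were higher than in control (Socs1, Cish, Stat2 and Stat3) and 1 was lower (Stat5b), where 54.7% of all genes were called, 28.9% higher and 25.8% lower. In colony cells 2 were higher than in control (Socs2 and Cish) and 5 lower (Stat2, Stat4, Stat5a, Stat5b and Stat6), with 71.4% of all genes called, 24.7% higher and 46.7% lower. The counts for LPS and colony cells are thus to be read against a background in which most genes were called. The processing of the arrays also moved this background: 52.9% of the genes called with LPS were higher, against 38.5% to 44.2% under 4 alternatives. These were normexp background correction, quantile normalization, median centring and the authors' deposited value table, which holds fewer genes. They called 4 of the 9 genes higher and 2 or 3 lower. These 3 comparisons share the control arrays.

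Cell-type markers moved with the stimuli too. Of 10 macrophage markers, all well above background in every group, 1 was higher and 7 lower with IL-4 than in control (median -0.79), and 4 were higher and 6 lower with LPS than in control (median -0.48). Their summed level, with the 75th percentile of each array set to 100, was 155200 to 160200 with IL-4, 160100 to 184800 with LPS and 207500 to 208800 in control. Of 8 pan-leukocyte markers 1 was higher and 2 lower with IL-4, and 6 were higher and 1 lower with LPS, with sums of 56410 to 58570 with IL-4, 96460 to 109000 with LPS and 53350 to 54280 in control. The fibroblast and stromal sum was 614 to 622 with IL-4, 150 to 170 with LPS and 65.4 to 82.2 in control, where of 8 markers 1 was higher and 2 lower with IL-4 and 3 were higher and 3 lower with LPS. On both arrays, 4 of the 8 were well above background with IL-4 and 5 in control. Dcn, Pdgfra and Lum were not well above background with IL-4 or in control. With LPS only Pdgfra was not, and 7 of the 8 were well above background on both arrays. The mesothelial sum was 5.12 to 5.22 with IL-4, 19.4 to 24.1 with LPS and 4.44 to 5.82 in control. Only 1 of its 7 markers with IL-4, 1 in control and 2 with LPS were well above background on both arrays. These sums thus rest in part on signals that were not measured. Of 7 mesothelial markers 1 was called higher with LPS and 0 with IL-4, and 0 lower with either. The part of these cells in the IL-4 and LPS changes was not tested.

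**Figure D1:**
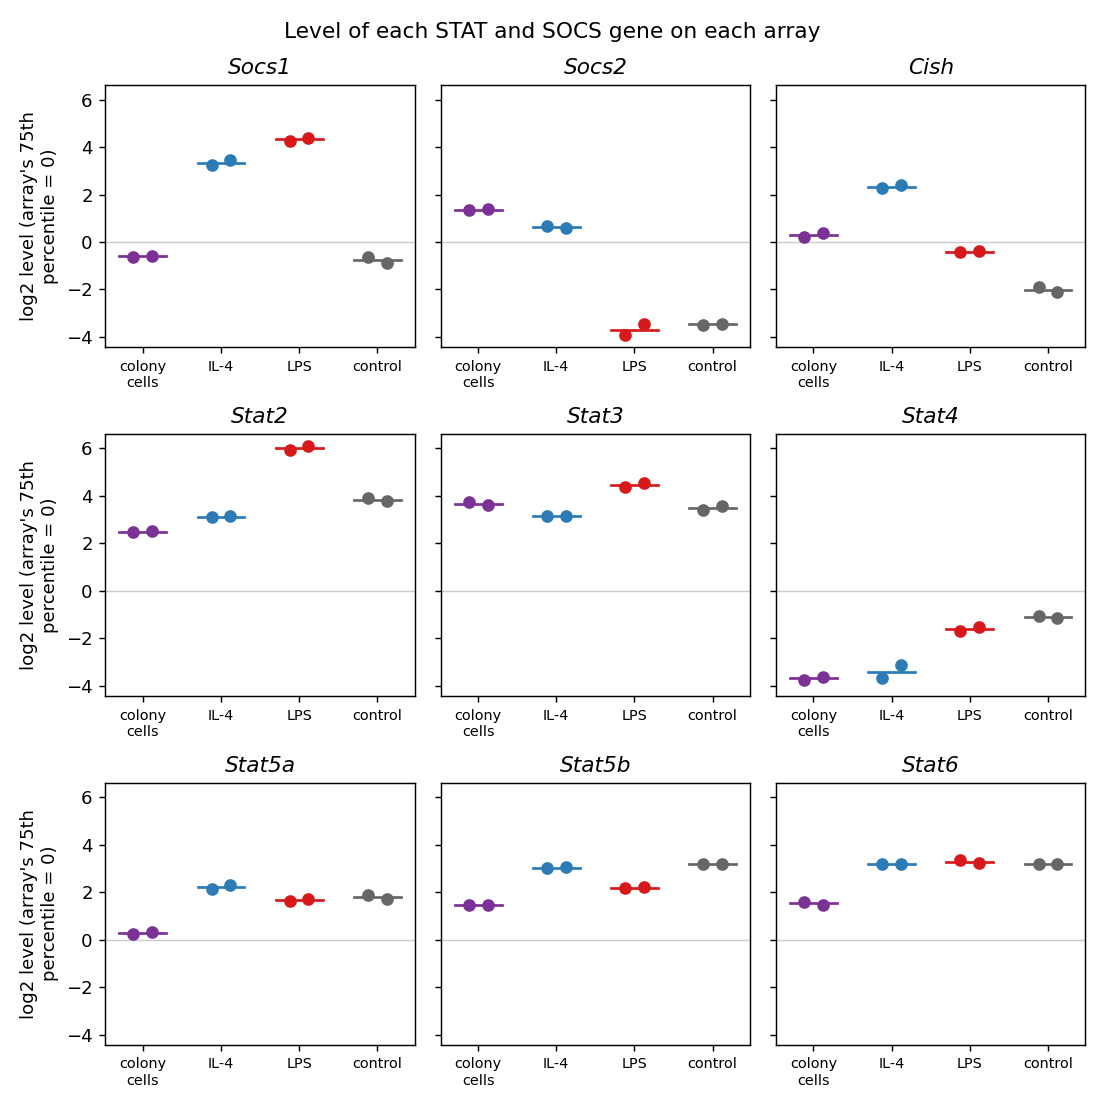
Log2 level (array's 75th percentile = 0) of the representing probe of each gene on each of the 8 arrays, with colony cells, IL-4, LPS and control from left to right. Points are arrays and bars are group means. Socs1 is high with IL-4 and LPS, Socs2 in colony cells and with IL-4, and Cish is highest with IL-4.

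Socs1 codes for an inhibitor that binds JAK kinases directly and restrains interferon and IL-4 signalling. Its levels were -0.63 and -0.58 in colony cells, 3.24 and 3.45 with IL-4, 4.27 and 4.38 with LPS, and -0.61 and -0.87 in control. Both stimuli stood apart from control, and colony cells overlapped it. The change was 5.07 ± 0.12 with LPS against control (33.5-fold higher, adjusted p = 3.86e-06 by limma) and 4.09 ± 0.12 with IL-4 against control (17.0-fold higher, adjusted p = 5.35e-05). By size of change, Socs1 stood at the 99.2 percentile of all genes with LPS and the 99.8 percentile with IL-4. IL-4 lay 0.98 ± 0.12 below LPS (limma adjusted p = 0.00131). Colony cells differed from control by 0.14 (95% interval -0.17 to 0.44, adjusted p = 0.35) and lay 15.5-fold below IL-4 and 30.5-fold below LPS.

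Socs2 codes for an inhibitor best known for restraining growth hormone signalling. It read 1.33 and 1.39 in colony cells, 0.66 and 0.60 with IL-4, -3.93 and -3.47 with LPS, and -3.50 and -3.44 in control. Colony cells and IL-4 lay far above both LPS and control, which overlapped each other. It was 28.4-fold higher in colony cells than in control (4.83 ± 0.15, limma adjusted p = 3.41e-06) and 17.1-fold higher with IL-4 than in control (4.10 ± 0.15, adjusted p = 0.000107). Under 12 alternatives that kept all arrays, Socs2 changed by 3.71 to 4.92 in colony cells and by 2.99 to 4.13 with IL-4. With LPS it differed from control by -0.23 (95% interval -0.61 to 0.15, adjusted p = 0.255), which was not called. It was called lower without LPS replicate 2 (-0.46, limma adjusted p = 0.0111), with quantile normalization (adjusted p = 0.0265), with median centring (0.026) and in the authors' deposited table (0.0262), and without LPS replicate 1 the difference was 0.0013. Colony cells were higher than IL-4 by 0.73 ± 0.15 (limma adjusted p = 0.00682).

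Cish, whose protein CIS competes with STAT5 for docking sites on receptors, had the largest change of the 9 genes under IL-4 in the fit used here. Under 12 alternatives that kept all arrays it changed by 3.78 to 4.38 and Socs1 by 3.87 to 4.12, so this rank did not always hold. Cish levels were 0.20 and 0.37 in colony cells, 2.28 and 2.40 with IL-4, -0.44 and -0.37 with LPS, and -1.91 and -2.11 in control. No pair of groups overlapped, and the order from IL-4 through colony cells and LPS to control was called at every step. Cish was 20.4-fold higher with IL-4 than in control (4.35 ± 0.11, limma adjusted p = 2.98e-05), 4.91-fold higher in colony cells than in control (2.29 ± 0.11, adjusted p = 1.37e-05) and 3.04-fold higher with LPS than in control (1.60 ± 0.11, adjusted p = 0.000108). IL-4 exceeded LPS by 2.75 ± 0.11 (limma adjusted p = 1.49e-05), and colony cells exceeded LPS by 0.69 ± 0.11 (adjusted p = 0.00171). All 3 inhibitors were thus higher with IL-4 than in control, and their changes stood at the 99.8, 99.8 and 99.9 percentiles of all genes for Socs1, Socs2 and Cish.

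**Figure D2:**
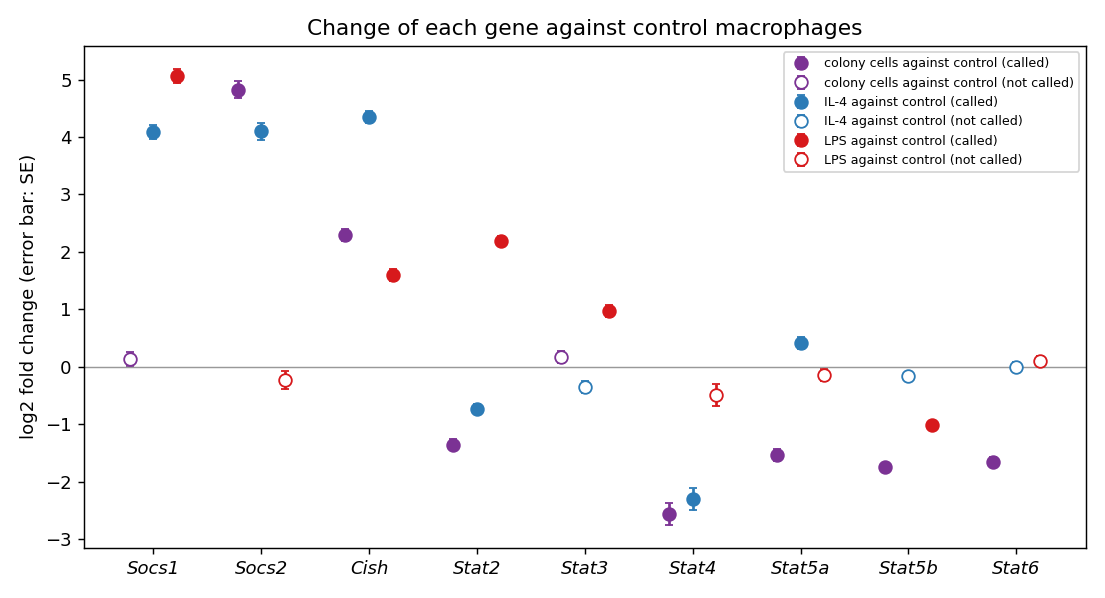
Log2 fold change against control of the 9 genes in colony cells, with IL-4 and with LPS; error bars are standard errors and filled points were called. IL-4 raised Socs1, Socs2 and Cish by more than 4 log2 units, LPS raised Socs1 alone by that much, and 5 of 6 STAT genes were lower in colony cells.

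The probes behind these values are shown for the 3 inhibitors, with the second kind of Socs2 probe, since the calls rest on what these letters can bind. They are given as on the array, 5′ to 3′, with mm9 positions from the array files. The Socs1 probe lies at chr16:10783951-10784010 on the minus strand, the Cish probe at chr9:107204196-107204255 on the plus strand, and the representing Socs2 probe at chr10:94875066-94875125 on the minus strand. The far Socs2 probe lies at chr10:94848005-94848064 on the minus strand and was designed on an Ensembl transcript, unlike the other 3 Socs2 probes, which share 1 RefSeq transcript. No mm9 annotation was used here, so exons and untranslated regions are not named.
Socs1 probe: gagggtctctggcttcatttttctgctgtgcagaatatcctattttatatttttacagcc
Cish probe: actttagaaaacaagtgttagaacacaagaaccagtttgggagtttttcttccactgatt
Socs2 representing probe: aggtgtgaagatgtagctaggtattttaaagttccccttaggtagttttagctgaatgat
Socs2 far probe: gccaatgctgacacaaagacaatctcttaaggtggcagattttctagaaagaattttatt

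The 3 near Socs2 probes changed together. Against control they gave 4.83, 4.44 and 4.46 in colony cells and 4.10, 3.81 and 3.82 with IL-4, all called in a fit over 39411 probes, while with LPS they gave -0.23, -0.23 and -0.16, none called. The far probe was well above background on the colony arrays alone, at -3.77 and -4.13. Its fold is therefore a lower bound, in colony cells at least 4.41-fold above IL-4, at least 4.12-fold higher than with LPS and at least 4.18-fold higher than in control. It was not well above background with IL-4, where the near probes rose. The representing Socs2 probe was printed at 10 spots per array, whose standard deviation was 0.041 to 0.20 on the log2 scale.

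**Figure D3:**
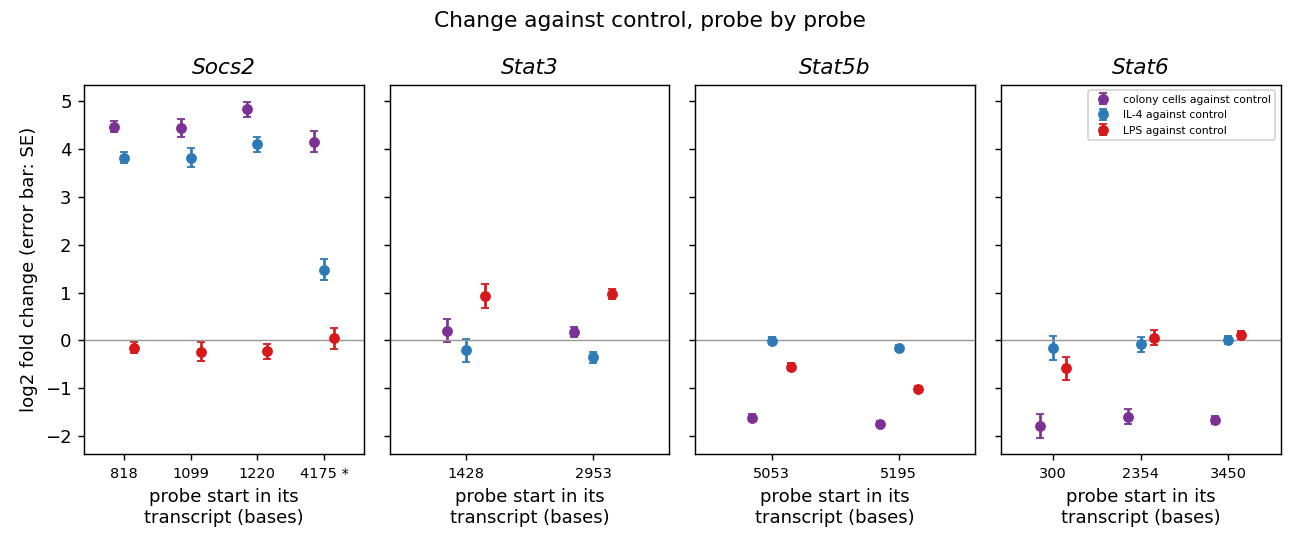
Log2 fold change against control of every probe of the 4 genes with several probes, by the probe's start in its own transcript; error bars are standard errors, and the star marks the Socs2 probe not well above background in the macrophage groups. The 3 other Socs2 probes moved alike, and the 2 Stat5b probes gave -1.01 and -0.55 with LPS.

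Among the factors, Stat2, the interferon factor, moved in opposite directions under the 2 stimuli. Its levels were 2.47 and 2.52 in colony cells, 3.10 and 3.14 with IL-4, 5.95 and 6.12 with LPS, and 3.91 and 3.78 in control. No groups overlapped, and every step of the order LPS, control, IL-4 and colony cells was called. Against control it was 4.55-fold higher with LPS (2.19 ± 0.09, limma adjusted p = 1.98e-05), lower by 0.73 ± 0.09 with IL-4 (-0.73, adjusted p = 0.0048) and lower by 1.35 ± 0.09 in colony cells (-1.35, adjusted p = 5.59e-05). With IL-4 it was 7.54-fold lower than with LPS (limma adjusted p = 6.9e-06). Stat2 has a single probe, at mm9 chr10:127729834-127729893 on the plus strand, and it holds the polyadenylation hexamer AATAAA, shown in capitals, that marks the end of most messages.
Stat2 probe: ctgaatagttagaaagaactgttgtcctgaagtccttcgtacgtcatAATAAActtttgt

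Stat3, the factor of the IL-6 and IL-10 families, was higher with LPS. It read 3.76 and 3.60 in colony cells, 3.14 and 3.16 with IL-4, 4.38 and 4.57 with LPS, and 3.43 and 3.58 in control. LPS lay above all other arrays and IL-4 below them, with colony cells just above control. LPS raised it by 0.97 ± 0.10 against control (1.96-fold, limma adjusted p = 0.000726), and the second Stat3 probe gave 0.93 ± 0.24 (adjusted p = 0.0239 over probes). The difference from control was -0.35 ± 0.10 with IL-4 (limma adjusted p = 0.0728) and 0.17 ± 0.10 in colony cells (adjusted p = 0.187), neither called, though 3 alternatives called the IL-4 difference and 2 the colony difference. Colony cells lay 0.53 ± 0.10 above IL-4 (limma adjusted p = 0.00543) and 0.79 ± 0.10 below LPS (-0.79, adjusted p = 0.000877). With quantile normalization the gap to LPS was -0.14 and not called (adjusted p = 0.26).

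Stat4, best known in T and NK cells as the factor of IL-12, was lower with IL-4 and in colony cells. It read -3.74 and -3.61 in colony cells, -3.69 and -3.13 with IL-4, -1.69 and -1.53 with LPS, and -1.08 and -1.15 in control. Colony cells and IL-4 overlapped each other and lay below both LPS and control. The fall against control was 4.90-fold with IL-4 (-2.29 ± 0.19, limma adjusted p = 0.00139) and 5.89-fold in colony cells (-2.56 ± 0.19, adjusted p = 8.82e-05). Under 12 alternatives that kept all arrays the changes were -2.29 to -1.50 with IL-4 and -2.70 to -1.79 in colony cells. By size the IL-4 change stood at the 99.1 percentile of all genes. LPS differed from control by -0.50 ± 0.19 (limma adjusted p = 0.0734), which was not called here and was called under 6 of 20 alternatives. T and NK cell markers stood beside it, and 5 of 10 were tested. Against control, 1 was higher and 4 lower in colony cells, and 1 was higher and 0 lower with IL-4, as with LPS. None of Cd3d, Cd3g, Ncr1, Klrb1c and Klrd1 was well above background in any group. The 5 tested markers were well above background on both IL-4 arrays, and 4 of them on both arrays of each other group. Their summed level (each array's 75th percentile = 100) was 399 to 417 in colony cells, 1202 to 1224 with IL-4, 943 to 1123 with LPS and 1173 to 1370 in control. Of the 4 lower in colony cells, Cd2 was not well above background in either group. The part of such cells in the level of Stat4 was not tested.

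Stat5a and Stat5b, neighbours of Stat3 on chromosome 11, code for closely related factors of the growth factor receptors. Stat5a read 0.26 and 0.31 in colony cells, 2.15 and 2.31 with IL-4, 1.61 and 1.73 with LPS, and 1.90 and 1.73 in control. Colony cells lay well below the 3 macrophage groups, and IL-4 just above the others. Stat5a was 2.89-fold lower in colony cells than in control (-1.53 ± 0.10, limma adjusted p = 4.94e-05). With IL-4 it was higher by 0.41 ± 0.10 (limma adjusted p = 0.0398), a call lost under 11 of 20 alternatives, among them the deposited value table (adjusted p = 0.0829) and leaving out IL-4 replicate 2 (adjusted p = 0.202). LPS differed from control by -0.14 (95% interval -0.39 to 0.10, adjusted p = 0.269).

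Stat5b read 1.45 and 1.45 in colony cells, 3.01 and 3.06 with IL-4, 2.17 and 2.21 with LPS, and 3.21 and 3.19 in control. Colony cells were lowest and LPS next, clear of IL-4 and control. It was 2.01-fold lower with LPS than in control (-1.01 ± 0.06, limma adjusted p = 7.71e-05) and 3.36-fold lower in colony cells than in control (-1.75 ± 0.06, adjusted p = 4.84e-06). IL-4 differed from control by -0.16 ± 0.06 (limma adjusted p = 0.134). Of the 2 STAT5 genes, Stat5b was thus called lower with LPS and Stat5a was not, and the difference between them was not tested. Both Stat5b probes bind the same RefSeq transcript within a short distance of each other, at chr11:100642045-100642104 and chr11:100642187-100642246 on the minus strand in mm9. With LPS they gave -1.01 ± 0.07 and -0.55 ± 0.07, both called over probes (adjusted p = 0.000136 and 0.00183), so the direction was shared and the size was not. The first holds the hexamer AATAAA, again in capitals, and the second does not.
Stat5b representing probe: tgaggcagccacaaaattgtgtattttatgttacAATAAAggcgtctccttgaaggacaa
Stat5b second probe: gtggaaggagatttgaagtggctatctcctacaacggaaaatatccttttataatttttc

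Stat6, the factor that IL-4 activates, did not itself change with IL-4 beyond the spread of the arrays. Its levels were 1.59 and 1.47 in colony cells, 3.21 and 3.18 with IL-4, 3.37 and 3.22 with LPS, and 3.17 and 3.21 in control. IL-4 overlapped control, LPS lay just above both, and colony cells lay far below all macrophage arrays. The difference from control was 0.0044 with IL-4 (95% interval -0.20 to 0.21, limma adjusted p = 0.98) and 0.10 with LPS (interval -0.10 to 0.31, adjusted p = 0.33). In colony cells Stat6 was 3.16-fold lower than in control (-1.66 ± 0.08, limma adjusted p = 1.8e-05), and its 2 other probes gave -1.59 and -1.78. With LPS the probe nearest the start of the transcript gave -0.58 ± 0.25 and was not called (adjusted p = 0.103 over probes).

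In the comparisons among the 3 other groups, IL-4 against LPS called 8 of the 9 genes, 4 higher and 4 lower, with 52.6% of all genes called, 25.8% higher and 26.8% lower. Of the genes called 49% were higher with IL-4, and 53.6% to 66.1% under the same 4 alternatives, none of which moved the counts of 4 and 4. The exception was Stat6. Colony cells against IL-4 called 8, with Socs2 and Stat3 higher and 6 lower, where 71.7% of all genes were called, 24.3% higher and 47.4% lower, and the exception was Stat4 (-0.26 ± 0.19, limma adjusted p = 0.255). Colony cells against LPS called all 9, with Socs2 and Cish higher and 7 lower, where 76.5% of all genes were called, 26.8% higher and 49.7% lower.

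The colony results have to be read beside what else differed in those samples. In bulk RNA fewer cells of a type and less RNA per cell cannot be told apart. Against control, all 10 macrophage markers were lower (median -3.57), among them Lyz2 and Csf1r, with a summed level of 15150 to 15450 in colony cells and 207500 to 208800 in control. All 8 pan-leukocyte markers were lower too (median -3.03, summed level 7152 to 7370 in colony cells and 53350 to 54280 in control). In the other direction, 7 of 7 mesothelial markers, 7 of 8 fibroblast and stromal markers and 7 of 8 mast cell and basophil markers were higher in colony cells. The mesothelial sum was 37780 to 39270 in colony cells and 4.44 to 5.82 in control, where Msln, Upk3b, Lrrn4, Wt1, Krt8 and Upk1b were not well above background. The stromal sum was 41240 to 41450 in colony cells and 65.4 to 82.2 in control, and the mast cell and basophil sum 632 to 639 in colony cells and 57.7 to 74.7 in control. Of 9 endothelial markers 7 were tested, 2 higher and 4 lower (summed level 2098 to 2111 in colony cells and 3584 to 4084 in control). Cdh5 was not well above background in colony cells, and the 6 other tested markers were on both arrays. Tek and Esam, among these 6, were not well above background in control. Tie1 and Emcn did not pass the filter on dim probes. Neutrophil markers (3 higher, 1 lower of 8), dendritic cell markers (2 and 2 of 5 tested), B cell markers (0 and 3 of 4) and megakaryocyte and erythroid markers (3 and 0 of 4) moved in part. The part of these cell types in the levels of the 9 genes was not tested. The median of all genes was -0.35 in colony cells against control and stayed between -0.50 and -0.30 under the same 4 alternatives of processing. Relative to it, Stat2 lay at -0.996, Stat4 at -2.20, Stat5a at -1.18, Stat5b at -1.39 and Stat6 at -1.30, and Socs2 at 5.18 and Cish at 2.65. Stat3 and Socs1, which were not called against control, lay at 0.53 and 0.49 relative to it.

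Promoter sequence was read for letters that STAT proteins are known to bind. The windows run from 250 bases before to 50 bases after the RefSeq start site (build GRCm38.p6), and 8 of the 9 symbols matched, with 11 windows in all. Socs2 had no entry. The motifs searched on both strands were the GAS site TTCNNNGAA, bound by most STAT pairs, the wider site preferred by STAT6, with TTC and GAA 4 bases apart, and the interferon-type site, GAAA and GAAA 2 bases apart, bound by the complex that holds STAT2. They occur in 8.3%, 6.95% and 3.44% of 32851 windows of the same length. Matches were found in 4 windows, those of Cish, Socs1, Stat2 and one start of Stat4, and none in those of Stat3, Stat5a, Stat5b and Stat6. The 3 windows below are those of Cish, Socs1 and Stat2, with the matched bases in capitals. Whether a match bears on a change in level was not tested. Without a match, Stat3 was called higher with LPS and Stat5a with IL-4, the second a call lost under many alternatives. Stat4 had a match and was called lower with IL-4 and in colony cells. Stat2, with matches too, was called lower in both and higher with LPS. In Cish 2 GAS sites lie at bases 1 to 9 and 12 to 20 from the start site, on the plus strand. In Socs1 2 overlapping interferon-type sites lie at -83 to -74 and -77 to -68. In Stat2 an interferon-type site on the minus strand lies at -222 to -213, and a STAT6-type site follows at -210 to -201. The Stat4 site, at its second start, lies at -97 to -88 and is of the interferon type. A match is a run of letters and not a measured binding site, and a window without one says nothing about the factor. The windows lie at chr9:107296409-107296708 on the plus strand for Cish, chr16:10785487-10785786 on the minus strand for Socs1 and chr10:128270248-128270547 on the plus strand for Stat2, all in GRCm38.p6, and are given 5′ to 3′ on the gene's strand.
Cish promoter: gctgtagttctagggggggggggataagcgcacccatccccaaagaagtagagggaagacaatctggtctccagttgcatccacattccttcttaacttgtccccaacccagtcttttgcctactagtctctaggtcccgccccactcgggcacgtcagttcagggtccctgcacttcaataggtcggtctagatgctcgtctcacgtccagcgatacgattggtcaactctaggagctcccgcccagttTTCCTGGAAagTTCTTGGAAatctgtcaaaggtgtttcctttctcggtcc
Socs1 promoter: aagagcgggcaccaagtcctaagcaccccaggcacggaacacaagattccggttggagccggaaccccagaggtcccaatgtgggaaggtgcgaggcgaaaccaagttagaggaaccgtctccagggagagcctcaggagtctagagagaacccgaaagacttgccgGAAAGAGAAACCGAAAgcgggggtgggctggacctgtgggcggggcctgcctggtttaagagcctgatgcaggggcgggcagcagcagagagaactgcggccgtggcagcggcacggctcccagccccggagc
Stat2 promoter: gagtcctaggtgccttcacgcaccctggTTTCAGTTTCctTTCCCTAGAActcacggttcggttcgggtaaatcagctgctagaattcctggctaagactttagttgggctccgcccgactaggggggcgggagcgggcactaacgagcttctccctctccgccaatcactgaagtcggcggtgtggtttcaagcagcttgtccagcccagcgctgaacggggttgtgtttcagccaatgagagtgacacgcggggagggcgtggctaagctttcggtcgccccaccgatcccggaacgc

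**Figure D4:**
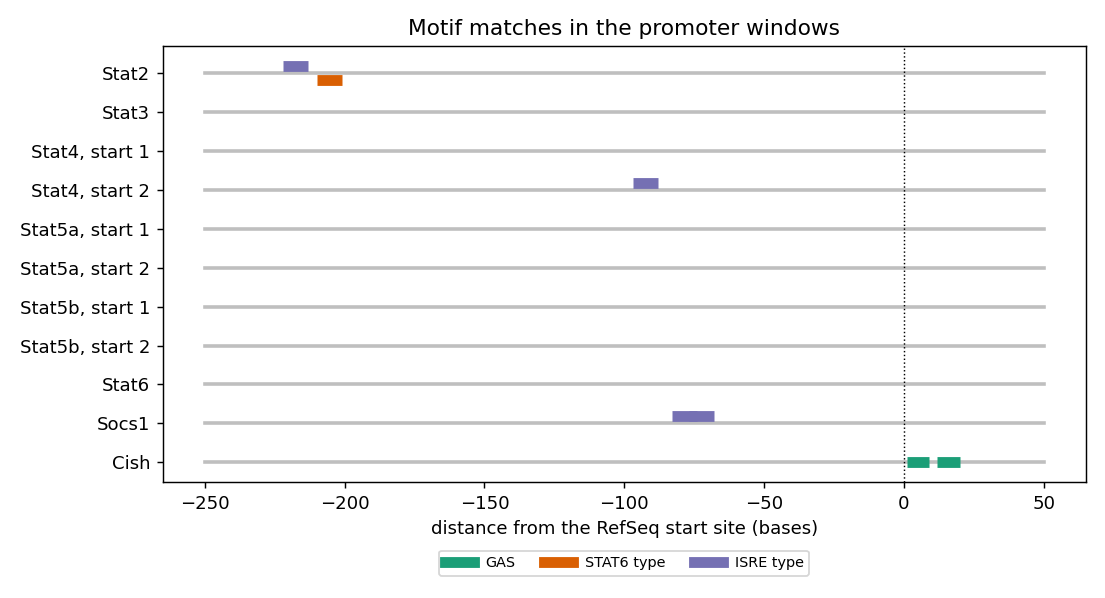
Motif matches in the 11 RefSeq promoter windows of 8 genes, by distance from the start site in bases (horizontal axis); colours mark the kind of motif. Cish has 2 GAS matches just after the start, and Socs1, Stat2 and the second Stat4 start have interferon-type (ISRE type) matches before it.

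Upstream of the STATs, ligand genes rose with LPS. Of 22 cytokine ligands 18 were tested, and 12 were higher and 3 lower with LPS than in control (median 2.46, all genes 0.07). They included Il6, the main ligand of STAT3 signalling (at least 1282-fold higher), and Il12b and Il12a, which form the STAT4 ligand IL-12 (at least 106-fold and 26.1-fold higher), each not well above background in control. With IL-4, 3 were higher and 4 lower than in control (median -0.11, all genes -0.0094), and the first median turned to 0.0063 with quantile normalization. The lymphocyte growth factor gene Il7 (at least 2.37-fold higher) and Tslp (1.48 ± 0.38), a cytokine of allergic inflammation, were among them, with the interferon Ifnb1 (at least 1.63-fold lower). In colony cells 6 were higher and 8 lower than in control (median -0.16, or 0.0070 with quantile normalization, all genes -0.35). These counts include Il12b (higher) and Csf2 (lower), which were not well above background in either group, and became 4 and 12 with normexp background correction. Il6 was at least 13.7-fold higher there, Ebi3, a subunit of IL-27 and IL-35, was lower (-5.45 ± 0.09, limma adjusted p = 5.62e-07), and the inhibitory cytokine Il10 was at least 18-fold lower.

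Receptor chains moved both ways with LPS and mostly down in colony cells. All 29 were tested, and with LPS 12 were higher and 14 lower than in control (median -0.25, all genes 0.07). The 12 include Osmr, which was not well above background with LPS or in control. The largest LPS changes were falls of Lifr, the receptor of leukemia inhibitory factor (-5.35 ± 0.18), Il7r, which with Il2rg binds IL-7 (-4.08 ± 0.07), and Epor, the erythropoietin receptor (-2.86 ± 0.12). With IL-4, 9 were higher and 7 lower than in control (median -0.09, all genes -0.0094), led by Il27ra (3.37 ± 0.21), Il11ra1 (1.85 ± 0.10) and Il12rb1 (1.57 ± 0.32), receptors of IL-27, IL-11 and IL-12. Il4ra, the chain that binds IL-4, was named after its values were seen: it was lower with IL-4 (-0.74 ± 0.08, limma adjusted p = 0.00264), higher with LPS (1.10 ± 0.08, adjusted p = 0.000123) and at 0.06 ± 0.08 in colony cells (adjusted p = 0.492), each against control. In colony cells 4 chains were higher and 21 lower than in control (median -1.70, all genes -0.35). There Osmr, the oncostatin M receptor, was higher by at least 786-fold, and Il10ra (-5.27 ± 0.07) and Il2rg, the common gamma chain (-4.30 ± 0.08), were lower.

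The kinases Jak1, Jak2, Jak3 and Tyk2 phosphorylate the STATs. With LPS 3 of 4 were higher than in control, Jak2 by 3.24 ± 0.08, Jak3 by 1.14 ± 0.15 and Tyk2 by 0.75 ± 0.16 (limma adjusted p of 0.0092 at most), and Jak1 was at -0.016 ± 0.09. The Tyk2 call with LPS was lost with median centring (adjusted p = 0.0786) and the deposited value table (0.0876). With IL-4 Jak2 was higher (0.90 ± 0.08, limma adjusted p = 0.00198) and Jak3 lower (-0.61 ± 0.15, adjusted p = 0.0451) than in control, and the Jak3 call was lost with quantile normalization (0.0535), median centring (0.171) and the deposited value table (0.183). In colony cells Tyk2 (-1.87 ± 0.16) and Jak1 (-1.53 ± 0.09) were lower and Jak3 was higher (0.75 ± 0.15) than in control.

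Other inhibitors of the pathway include phosphatases, PIAS proteins and the remaining SOCS genes on the list. Of 16 tested, 9 were higher and 4 lower with LPS than in control (median 0.39, all genes 0.07), a split that became 3 higher and 4 lower with median centring or the deposited value table. Usp18, which blocks the interferon receptor, was higher (4.71 ± 0.08), as was the phosphatase gene Ptpn6 (1.15 ± 0.07), and Socs6 was lower (-2.07 ± 0.07). With IL-4, 2 were higher and 2 lower than in control (median 0.015, all genes -0.0094): Usp18 (-1.29 ± 0.08), Ptpn2 (0.52 ± 0.08), Ptpn6 (-0.44 ± 0.07) and Socs6, whose rise of 0.29 ± 0.07 (limma adjusted p = 0.0437) was named after its value was seen. With median centring or the deposited value table only Usp18 of these 4 was still called, and the list had 0 higher and 1 lower. The IL-4 median turned to -0.04 with quantile normalization. In colony cells 2 were higher and 10 lower than in control (median -0.48, all genes -0.35), with Ptpn6 (-3.85 ± 0.07), Ptprc (-3.57 ± 0.10), which codes for the leukocyte antigen CD45, and the adaptor gene Sh2b3 (-2.51 ± 0.06) lowest against control.

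Downstream, genes known as targets of the interferon complex mostly moved in the direction of Stat2 in each comparison with control. With LPS 18 of 18 were higher than in control (median 3.58, all genes 0.07), among them Oasl1 (5.46 ± 0.09), Ifi44 (5.38 ± 0.11) and Usp18. With IL-4 18 of 18 were lower than in control (median -2.14, all genes -0.0094), including Ifit3 (-3.94 ± 0.08) and Ifit1 (-3.00 ± 0.14), antiviral genes of 1 family, and Oasl1 (-3.50 ± 0.09), known in mice to restrain translation of Irf7. In colony cells 16 were lower and 1 higher than in control (median -2.27, all genes -0.35). Mx1 (-5.57 ± 0.14), Cmpk2 (-4.23 ± 0.09) and Rsad2 (-4.18 ± 0.12), antiviral genes, had the largest falls there, and the exceptions, named after their values were seen, were Ifi44 (0.72 ± 0.11, called) and Usp18 (-0.12 ± 0.08, not called). The LPS and IL-4 counts of 18 and the colony count of 16 held under the same 4 alternatives of processing.

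Of 14 genes known as STAT3 targets, 10 were higher and 2 lower with LPS than in control (median 1.21, all genes 0.07), led by the acute-phase and secreted-protein genes Saa3 (10.55 ± 0.21), Lcn2 (8.20 ± 0.11) and Il1rn (7.23 ± 0.13). With IL-4, 3 were higher and 6 lower than in control (median -0.03, all genes -0.0094), with Myc (2.56 ± 0.12) and Nfil3 (2.47 ± 0.06), both transcription factors, higher and Saa3 (-2.20 ± 0.21) lower. In colony cells 6 were higher and 4 lower than in control (median 0.21, all genes -0.35), with Timp1, a protease inhibitor, higher (7.95 ± 0.10) and Etv3 (-2.97 ± 0.19) and Bcl6 (-2.57 ± 0.08), both transcriptional repressors, lower.

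Genes known as STAT5 targets were mostly higher in colony cells, where both STAT5 genes were lower. Of 12, 10 were higher and 2 lower in colony cells than in control (median 1.31, all genes -0.35), a count that held under the same 4 alternatives of processing. Ccnd2, a cyclin of the G1 phase (5.90 ± 0.08), Il2ra, a receptor chain of IL-2 (at least 5.26-fold higher), and Id1, an inhibitor of differentiation (3.61 ± 0.13), had the largest changes. The 2 lower genes were Bcl6 and Mcl1 (-2.27 ± 0.09), the second named after its value was seen. These targets are shared with other factors and cell types, and the marker lists above moved in the same samples. With LPS 8 were higher and 3 lower than in control (median 0.63, all genes 0.07), with Il2ra (at least 22.1-fold higher), Ccnd2 (4.24 ± 0.08) and the kinase gene Pim2 (3.74 ± 0.08). With IL-4, 4 were higher and 3 lower than in control (median 0.08, or -0.04 with normexp background correction, all genes -0.0094), a count that became 3 and 1 with median centring and 2 and 1 in the deposited value table. Among them Myc and Pim1 (0.84 ± 0.13) were higher and Pim2 (-0.86 ± 0.08) lower, and the Pim1 call was lost in the deposited value table (adjusted p = 0.0515).

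Genes known as STAT6 targets rose with IL-4 while Stat6 did not. Of 18, 17 were tested, and 13 were higher and 1 lower with IL-4 than in control (median 2.86, 2.16 with dim genes at their bounds, 1.24 with normexp background correction, all genes -0.0094). Retnla (at least 39654-fold higher), Arg1, the arginase gene (at least 444-fold higher), and Pdcd1lg2 (4.93 ± 0.14), a ligand of the receptor PD-1, had the largest changes, and the gene that fell was Il4ra. With LPS 9 were higher and 4 lower than in control (median 1.07, 0.44 with bounds, 0.00079 with normexp background correction, all genes 0.07), with Arg1 at least 158-fold higher and the lectin genes Clec10a (-7.32 ± 0.09) and Mrc1 (-5.56 ± 0.10) lower. In colony cells 9 were higher and 5 lower than in control (median 0.25, all genes -0.35), or 7 and 7 with normexp background correction (median -0.16), with Arg1 at least 10049-fold higher, the adhesion gene Cdh1 at least 42.2-fold higher and the transcription factor gene Klf4 higher by 4.85 ± 0.11.

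**Figure D5:**
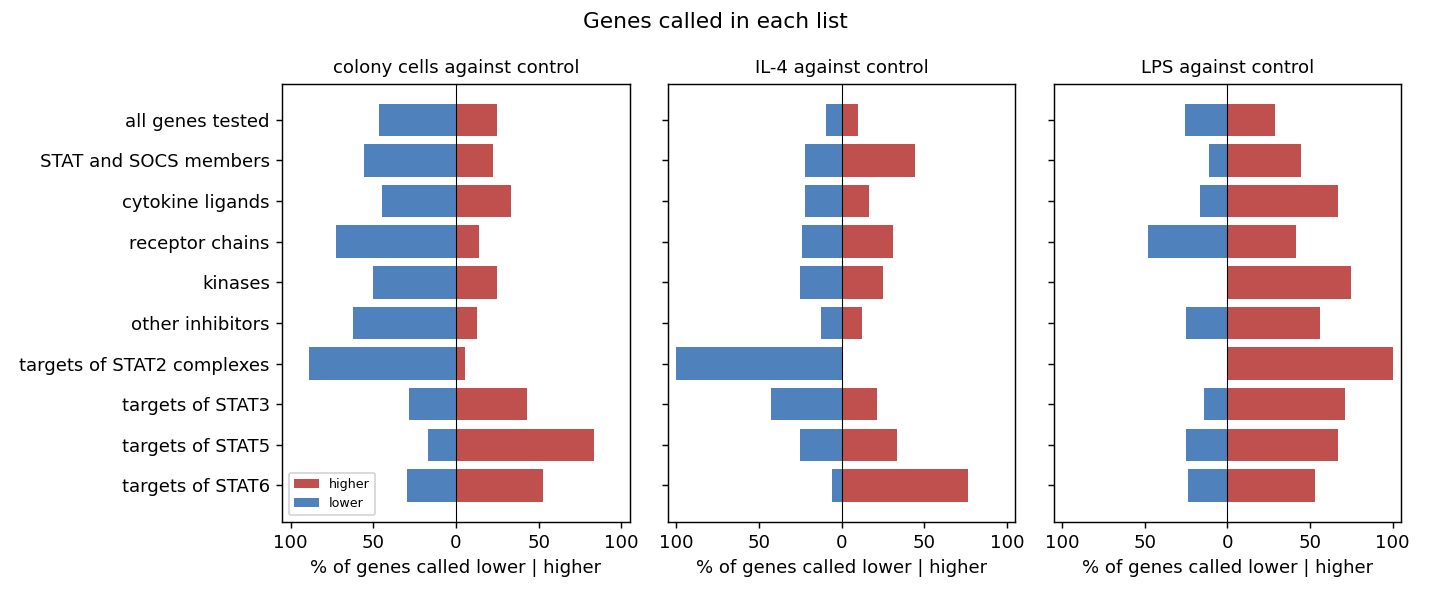
Share of the tested genes of each list called lower (left of 0) or higher (right of 0) against control, in percent, for colony cells, IL-4 and LPS, with all 26504 genes tested in the top row. All 18 targets of STAT2 complexes were higher with LPS and lower with IL-4, 13 of 17 STAT6 targets were higher with IL-4, and 10 of 12 STAT5 targets were higher in colony cells.

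The genes most like each member over the 8 arrays were sought among 17441 named genes, by the root mean square difference of levels centred on each gene's mean. This is a description of 8 arrays in 4 groups, so many genes share such a shape. Stat2 was closest to Ifih1 (0.061 log2 units), the cytoplasmic sensor of viral RNA and itself on the list of interferon-complex targets, whose mean levels were 1.41 in colony cells, 1.95 with IL-4, 4.95 with LPS and 2.64 in control, and next to Vasp (0.094). Stat3 was closest to B4galt1 (0.094) and Pced1b (0.104), Stat5a to Bloc1s6 (0.066) and Tkt (0.091), Stat5b to Lgmn (0.055) and Hdac5 (0.058), and Stat6 to Smarcd2 (0.054) and Xdh (0.058). Stat4 had a looser match in Rrad (0.168), then Clec4n (0.331). The nearest genes of Cish and Socs1 lay further off than those of the factors. This difference can grow with the span of a gene's levels, which was widest for the inhibitors. Socs2 was closest to Ppp1r3c (0.17), a glycogen-targeting subunit, whose means were -3.28 in colony cells and -4.03 with IL-4. With LPS and in control Ppp1r3c was not well above background, so its rank rests in part on signals that were not measured. The next was Mmp12 (0.318), macrophage elastase, well above background on all 8 arrays. Cish was closest to the surface proteoglycan gene Gpc1 (0.429) and Flrt2 (0.497), and for Socs1 the nearest genes, Pla2g5 (0.761) and Gatm (0.914), still differed from it by most of a log2 unit.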

How the data were processed

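The deposited scanner files give the intensity of each spot. Per the file headers these intensities were background-subtracted and detrended by Agilent Feature Extraction 10.7.3.1 and not scaled between arrays. Other columns, per the file headers, mark with 0 or 1 whether a spot was saturated, uneven, an outlier, or well above background. A deposited value table on the log2 scale, made by the authors, served as an alternative: its columns followed the log2 scanner signals with a Pearson r of 0.99996 or more over probes, and had medians of 2.53 to 2.96, and its scaling constant is not given in the sources used here. The submitters' processing notes list Partek 6.4 and RMA and do not say what each did. The 8 arrays shared 1 slide and 1 scan, and the number of arrays limits the precision.

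Uneven or outlying spots were left out, log2 signals were set relative to their array's 75th percentile, and replicate spots were averaged by probe. The filter kept the 39411 probes that were well above background on both arrays of any group, and the one with the highest mean represented its gene (26504 genes, 37 of them lacking a value on at least 1 array). One model with 4 group means over all 8 arrays was fitted with limma 3.58.1 in R 4.3.3, without an intensity trend, and p-values were Benjamini-Hochberg adjusted over all genes. The fit was also run on simulated data in which 200 genes changed, in the LPS group alone. Far more genes were called in the real data, so that run does not measure the error of the calls given here. A fold against a group where all probes of a gene were dim is a lower bound, against the higher of the gene's own signal and the lowest signal well above background. Probe names came from the array files and the RefSeq table. Promoters are RefSeq's, build GRCm38.p6, and probe positions are mm9 as in the array files.

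The members and lists were chosen with earlier results of these data known, so no count over them is independent support for a pattern. Named were all 9 members, up to 3 called genes with the largest change per list and comparison, up to 3 markers per list beside the dim ones, and the 2 genes most like each member whose group means span at least 1 log2 unit. Lists of known target genes rest on textbook knowledge and share some genes. Alternatives were normexp with an offset of 50, quantile normalization, median centring, other filters on dim probes, the mean over the probes of a gene, a fit on probes, a variance trend, array weights, uneven and outlying spots kept, the deposited value table, a replicate block, and each array left out in turn.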

Additional observations from a re-analysis of the deposited data

How the results depend on the processing

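The number of the 9 genes called in each comparison stayed within 1.5 times its value under all 20 alternatives: 5 to 7 with LPS against control, 5 to 8 with IL-4 against control, 7 or 8 in colony cells against control, 8 in IL-4 against LPS, 8 or 9 in colony cells against IL-4, and 8 or 9 in colony cells against LPS. No called change reversed. With 2 arrays per group, leaving out each in turn assumes that the lone array varies like the other groups, and gave 5 or 6 calls with LPS, 5 or 6 with IL-4 and 7 in colony cells, each against control. Stat5a with IL-4 lost its call under 11 alternatives (adjusted p of 0.0521 to 0.202), while Stat3 with IL-4 gained one with quantile normalization (0.0399), the stricter filter (0.0445) and a variance trend (0.0221). Stat4 with LPS gained one under 6 alternatives (0.0153 to 0.0464). Socs2 with LPS gained one with quantile normalization (0.0265), median centring (0.026), the deposited table (0.0262) and without LPS replicate 2. Stat3 in colony cells against control gained one with normexp (0.0474) and quantile normalization (0.00541), Stat5b with IL-4 with quantile normalization (0.0336), and Stat4 in colony cells against IL-4 without IL-4 replicate 1 (0.0168). The cause of these shifts was not tested. Over all genes, the 5049 called with IL-4 became 2667 with median centring, 2566 with the deposited table, 2169 and 2004 without IL-4 replicate 1 or 2, and 3086 without control replicate 2. In the lists, requiring every array above background cut the called ligands to 4 of 12 (IL-4 against LPS), 6 of 15 (LPS against control), 6 of 17 (colony cells against LPS), 6 of 11 (colony cells against IL-4) and 7 of 14 (colony cells against control), since fewer genes were tested. Median centring and the deposited table cut the other inhibitors to 7 of 13 with LPS, 1 of 4 with IL-4, each against control, and 6 of 11 in IL-4 against LPS, or 7 without either IL-4 array. Small lists with IL-4 against control also moved: ligands 3 or 4 of 7 under 5 alternatives, kinases 1 of 2 under 12, other inhibitors 1 of 4 and STAT5 targets 4 of 7 without either IL-4 array, STAT5 targets 4 with median centring and 3 in the deposited table, and receptor chains 10 of 16 without IL-4 replicate 2. Between IL-4 and LPS, 49% of called genes were higher, and 66.1% in the deposited table. It is not known whether the replicate numbers pair the samples, since the labels give them no meaning. Deviations of same-numbered arrays correlated at -0.16 to 0.052, and with 1 difference between replicates per group this cannot decide it. With a replicate block Stat5a with IL-4 had a limma adjusted p of 0.075.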
